A study of Homo sapiens with 6 samples.

Results

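The genes described here copy the chromosomes or open the way from G1 into S phase. They are 51 genes chosen by name, and every probe annotated to one of their symbols was taken. The arrays held 64 such probes among 48701, and all 51 genes were among the 18774 genes with a probe. A gene entered the tests if both arrays of some group detected 1 of its probes (detection p-value under 0.01), which left 49 of the 51 members and 8018 genes in all. GINS1, a subunit of the replicative helicase, and POLA1, the catalytic subunit of polymerase alpha, were detected on 0 of 6 arrays and could not be tested.

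RNA came from HEK293T, an established human embryonic kidney line with the SV40 large T antigen, a viral protein that binds the RB family and p53. There were 2 arrays of cells given 4 µg of a plasmid with the miR-23a, miR-27a and miR-24-2 cluster, 2 of cells given 2 µg of it, and 2 of untransfected control cells. The series calls the arrays of a group biological duplicates, and cells were transfected in 1 well of a multiwell plate. The labels used here state no time of harvest. No group received a plasmid without the cluster, so the microRNAs, the plasmid and the transfection itself cannot be told apart. All arrays were on 1 chip, where each group had its own pair of positions, so group and position cannot be told apart either.

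Replication starts from origins that are licensed in G1. The origin recognition complex (ORC) binds the DNA, CDC6 and CDT1 bring in the ring of MCM2 to MCM7, and geminin (GMNN) holds CDT1 back once S phase has begun. MCM10, CDC45 and the GINS complex turn the loaded ring into a moving helicase, after which primase, the polymerases, the PCNA clamp and its RFC loader copy the strands. Most of these genes are transcribed by E2F factors, which RB holds in check until cyclin D and cyclin E kinases phosphorylate it. In cells with large T antigen that check is weakened. In RNA from whole cultures, a change in the share of cells in a cell cycle phase and a change of RNA per cell cannot be told apart.

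The mature guide strands of the cluster are shown because they are what the plasmid was built to make. They are given from RefSeq on GRCh38.p14, minus strand of chromosome 19, with the seed (bases 2 to 8) in capitals. The seeds of miR-23a and miR-27a share most of their letters, and that of miR-24 differs from both.
hsa-miR-23a-3p (chr19:13836595-13836615): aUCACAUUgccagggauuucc
hsa-miR-27a-3p (chr19:13836447-13836467): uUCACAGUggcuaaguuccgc
hsa-miR-24-3p (chr19:13836289-13836310): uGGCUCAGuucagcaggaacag

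The median probe carried 40 beads, and 9278 to 10371 probes were detected per array. Duplicates correlated at 0.9898 to 0.9941 over the tested genes, which are not independent replicates. Of 8 genes listed as markers of this line, VIM, KRT8 and KRT18 were detected on all 6 arrays. NEFL and NEFM were detected on 4 of 6 each, and INA, PAX2 and LHX1 on 0 of 6. NEFL was detected on 0 of 2 arrays at 2 µg and was at least 3.80-fold lower there than in the control. At 4 µg NEFL fell by 1.85 on the log2 scale (adjusted p = 0.000256). KRT8 fell by 0.60 at 4 µg (adjusted p = 0.0129) and by 1.19 at 2 µg (adjusted p = 0.000128). VIM fell by 0.56 at 2 µg (adjusted p = 0.0183) and had a change of -0.41 at 4 µg (adjusted p = 0.0931). KRT18 and NEFM were not called at either dose. The summed linear intensity of the 8 was 4866 to 5828 at 4 µg, 4364 to 5209 at 2 µg and 6605 to 8212 in the control. PTPRC, CD3E, CD14 and HBB, 4 of the 5 haematopoietic markers on the array, were detected on 0 of 6. The fifth, CD68, which macrophages express strongly, was detected on 6 of 6 and rose by 0.74 at 4 µg (adjusted p = 0.0103) and by 0.79 at 2 µg (adjusted p = 0.00333). The sum of the 5 was 498 to 569, 495 to 615 and 385 to 392 in the same order. The 6 fibroblast markers summed to 500.0 to 501.6, 399 to 438 and 622 to 638, with COL1A2, DCN and PDGFRB undetected. COL3A1 was detected on 6 of 6 arrays and COL1A1 and LUM on 4 of 6 each. Detection of COL1A1 was on 1 of 2 arrays at each dose and 2 of 2 in the control, so only the control let it into the tests. COL1A1 and COL3A1 fell by 0.87 and 0.66 at 4 µg and by 0.99 and 0.88 at 2 µg. LUM had a log2 change of 0.21 at 4 µg (adjusted p = 0.299). At 2 µg LUM was detected on 0 of 2 arrays and was at least 1.23-fold lower than in the control. The 5 endothelial markers summed to 286 to 290, 299.5 to 300.5 and 212 to 216, with PECAM1, CDH5 and KDR undetected. VWF was detected on 2 of 2 arrays at each dose and 0 of 2 in the control. TEK was detected on 1 of 2 arrays at each dose and 0 of 2 in the control. The part of these marker levels in the results that follow was not tested.

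At 2 µg more replication genes rose than fell against the control, and at 4 µg the calls were split. Of 49 tested members 18 were called at 2 µg, where 41.6% of all tested genes were. Of these 16 rose and 2 fell, against 21.8% and 19.8% of all tested genes, and the median log2 change was 0.25 against 0.03 for all tested genes. At 4 µg 10 were called, where 22.0% of all tested genes were; 4 rose and 6 fell, against 11.8% and 10.2% of all tested genes, with a median of -0.06 against 0.03. Set directly against 2 µg, 10 members were lower at 4 µg and 0 were higher, where 3.57% and 5.23% of all tested genes were, or 8.79% in all. The median difference was -0.29 against 0.00 for all tested genes, and 40 of 49 members had a negative value. A member was called, and is said to rise or fall, at a limma adjusted p under 0.05 after Benjamini-Hochberg adjustment over all 8018 genes. At an unadjusted p under 0.05, 22 members were lower and 0 higher at 4 µg than at 2 µg, against 12.5% and 14.6% of all tested genes.

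The arrays of the groups did not overlap for 34 members between 2 µg and control, against 69.6% of all tested genes. Of these 26 were higher at 2 µg and 8 lower, against 36.1% and 33.4%. Between 4 µg and control 33 members did not overlap, against 65.8%, with 15 higher and 18 lower, against 35.6% and 30.2%.

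**Figure D1:**
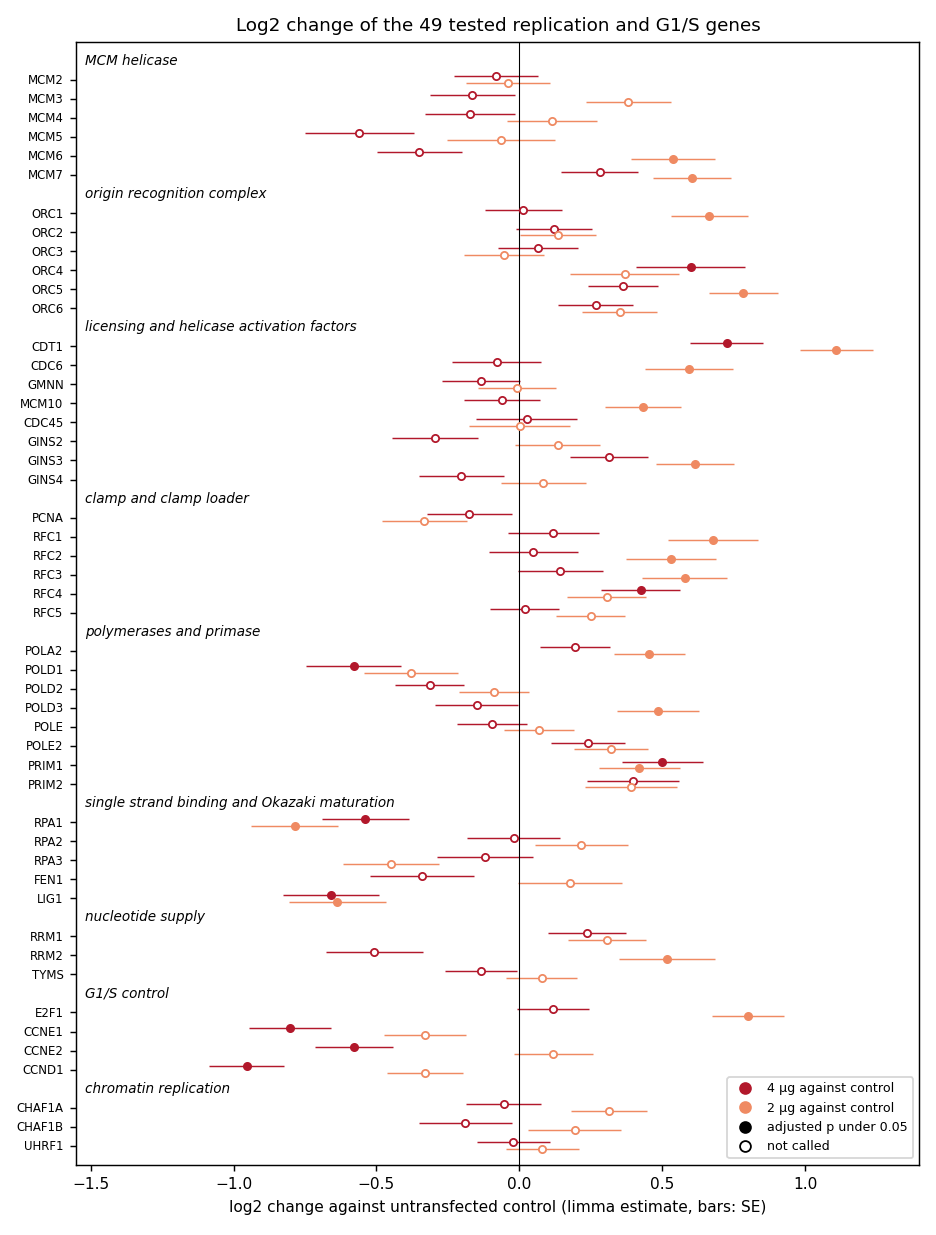
Log2 change of each of the 49 tested members at 4 µg (dark red) and 2 µg (orange) against the untransfected control, by role, with bars for the standard error (2 arrays per group) and filled points for called genes. The 16 called rises at 2 µg are spread over most roles, while the calls below 0 at 4 µg include all 3 cyclins.

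The 2 µg duplicates differed from each other for these genes. Replicate 1 was above replicate 2 for 39 of 49 members, by a median of 0.17 on the log2 scale, against 50.2% of all tested genes and a median of 0.00. In the 4 µg group and in the control, replicate 1 was above replicate 2 for 24 of 49 members each. The members that rose at 2 µg numbered 10 without either control array, 11 when 2 µg replicate 1 was left out and 15 when 2 µg replicate 2 was. Of all 8018 tested genes 1286 and 1285 rose in the fits that left out control replicate 1 or 2, and 19.0% and 17.3% in those that left out 2 µg replicate 1 or 2. The members that fell numbered 5 when 2 µg replicate 1 was left out and 1 when control replicate 2 was, against 17.7% and 14.8% of all tested genes. The median stayed above that of all tested genes by 0.18 to 0.31 when any 1 array was left out.

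**Figure D2:**
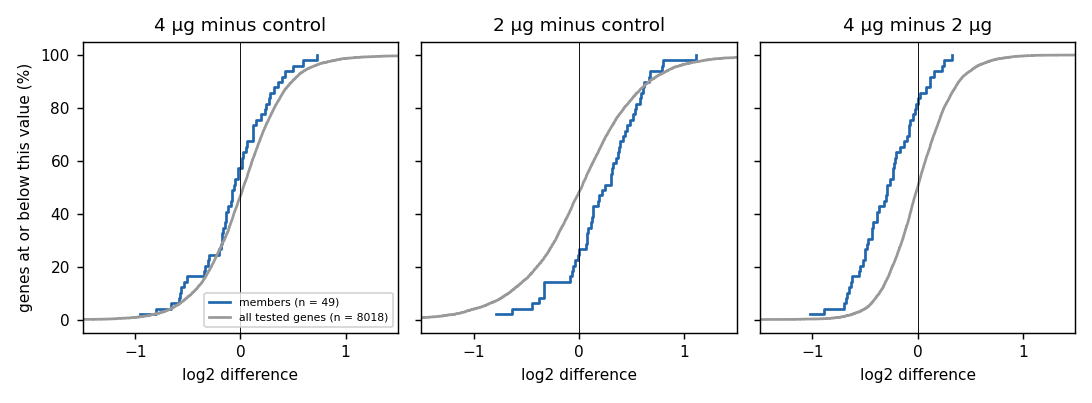
Cumulative share of genes (vertical axis, percent) by log2 difference (horizontal axis) for the 49 tested members and all 8018 tested genes. The members lie mostly to the right of all genes for 2 µg minus control (median 0.25), where the curves meet at the upper end, and to the left for 4 µg minus 2 µg (median -0.29).

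The stretches before the start of 5 members are shown because they hold letters that E2F factors are known to bind, and because these genes were called in different directions. The search was for TTTCCCGC, TTTCGCGC, TTTGCCGC and TTTGGCGC, each on both strands, in the 250 bases before and 50 bases after the annotated start. These words can overlap each other when read on opposite strands. RefSeq promoters on GRCh38.p14 were found for 43 of the 51 members. At least 1 word was present for 21 of the 43 (48.8%), against 7.12% of the 6704 tested genes with a promoter and 3.99% of all 27305 genes with one. The 43 include GINS1 and POLA1, which were not tested and each had a match. A gene counted if any of its promoter entries held a word, and the 43 members had 55 entries. Median GC content was 66.0% for the members and 64.7% for tested genes. Matches are in capitals below, in windows of 100 bases read 5′ to 3′ on the strand of the gene. The match starts at position -35 from the start in CDT1 and at -33 and -20 in E2F1. MCM6 has an overlapping pair at -90 and -86 and another at -152 and -148, outside the window. MCM7 has matches at -9 and -187, the second outside the window, and LIG1 has 1 at -114.
CDT1, plus strand, chr16:88803689-88803788: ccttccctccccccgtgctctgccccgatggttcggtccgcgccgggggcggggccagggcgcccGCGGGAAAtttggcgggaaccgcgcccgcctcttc
E2F1, minus strand, chr20:33686386-33686485: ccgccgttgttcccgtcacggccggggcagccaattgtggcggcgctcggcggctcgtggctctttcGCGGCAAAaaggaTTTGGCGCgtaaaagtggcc
MCM6, minus strand, chr2:135876444-135876543: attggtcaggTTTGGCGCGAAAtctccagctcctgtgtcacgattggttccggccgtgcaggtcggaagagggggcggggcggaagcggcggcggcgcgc
MCM7, minus strand, chr7:100101398-100101497: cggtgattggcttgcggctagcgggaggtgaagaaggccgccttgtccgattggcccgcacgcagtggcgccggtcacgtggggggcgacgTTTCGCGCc
LIG1, minus strand, chr19:48170435-48170534: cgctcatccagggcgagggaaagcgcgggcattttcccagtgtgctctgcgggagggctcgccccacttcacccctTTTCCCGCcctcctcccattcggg

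By role, a word was present for 4 of 4 MCM ring genes with a promoter, 6 of 8 licensing and helicase activation genes, 4 of 8 polymerase and primase genes, and 1 of 6 ORC genes. It was present for 8 of 15 members that rose at 2 µg, for 1 of 2 that fell and for 10 of 24 that were not called, so called and uncalled members both carried it. Of the members lower at 4 µg than at 2 µg, 4 of 7 with a promoter carried it, and of those not called 15 of 34 did. A match is a stretch of letters and was not tested for binding.

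**Figure D3:**
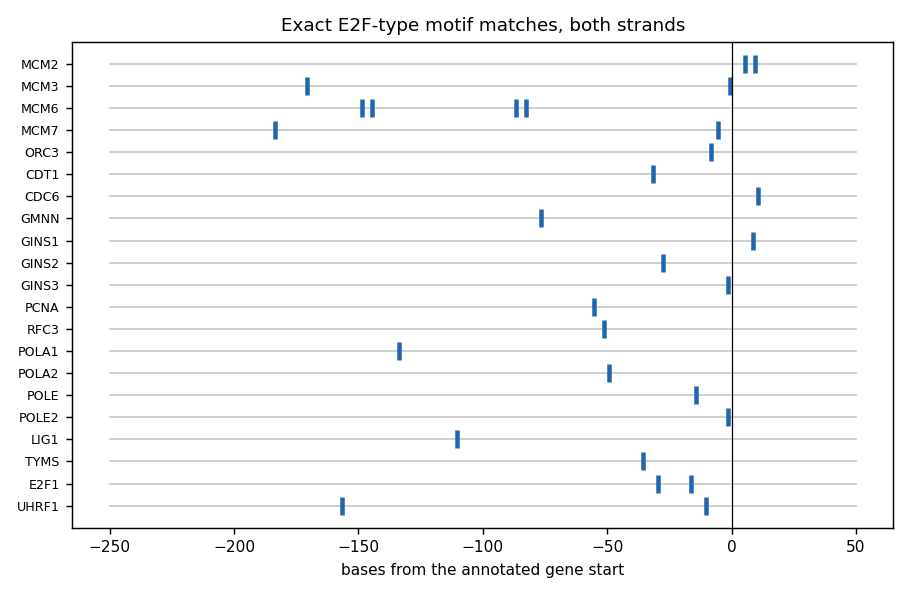
Positions of exact matches to the 4 words on either strand (blue marks at the middle of each match) along the bases searched around the annotated start of the 21 members that have one, in bases from the start (0). Several matches lie within 60 bases before the start; those of UHRF1 come from 2 annotated starts.

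CDT1, which brings the MCM ring to origins and is destroyed in S phase, had the largest rise of the 49 members at 2 µg. Its normalized log2 intensity was 10.82 and 10.91 at 4 µg, 11.33 and 11.17 at 2 µg and 10.12 and 10.16 in the control. All 3 groups were separate, with 2 µg highest and the control lowest. CDT1 rose by 1.11 on the log2 scale at 2 µg (SE 0.13, a 2.16-fold rise, adjusted p = 0.000118) and by 0.73 at 4 µg (SE 0.13, 1.65-fold, adjusted p = 0.00383). Both calls held under each of the 15 other settings run. The 4 µg arrays were lower than the 2 µg arrays by a log2 difference of -0.38, which was not called (adjusted p = 0.086).

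CDC6, the ATPase that works with CDT1, read 6.89 and 7.04 at 4 µg, 7.60 and 7.67 at 2 µg and 7.25 and 6.83 in the control. Only the 2 µg arrays stood apart, above both other groups. CDC6 rose by 0.59 at 2 µg (SE 0.16, adjusted p = 0.0114) and was lower at 4 µg than at 2 µg by -0.67 (SE 0.16, adjusted p = 0.0272). The rise was lost without 2 µg replicate 2 or control replicate 2 (adjusted p up to 0.0944), and the difference between doses without any 1 of the 4 treated arrays (up to 0.177), with median scaling over all probes and with no detection filter. GMNN, the inhibitor of CDT1, read 10.92 and 10.80 at 4 µg, 10.86 and 11.12 at 2 µg and 11.00 and 10.98 in the control. Its 2 µg arrays lay on either side of the control, and its log2 change was -0.13 at 4 µg (adjusted p = 0.51) and -0.01 at 2 µg (adjusted p = 0.972).

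Among the factors that fire the helicase, MCM10 read 10.44 and 10.52 at 4 µg, 11.01 and 10.94 at 2 µg and 10.66 and 10.42 in the control. It rose by 0.43 at 2 µg (SE 0.13, adjusted p = 0.0235), and the 4 µg arrays fell below both 2 µg arrays, with a difference of -0.50 (adjusted p = 0.0453). The rise was lost without 2 µg replicate 1 or control replicate 2 (adjusted p up to 0.147), and the difference between doses when any 1 of the 6 arrays was left out (up to 0.244). That difference also ended with the replicate number as a block, median scaling over all probes, the authors' processed values, no detection filter and only the groups compared fitted. GINS3, a subunit of the GINS complex, read 10.63 and 10.57 at 4 µg, 11.03 and 10.77 at 2 µg and 10.35 and 10.22 in the control. The 3 groups did not overlap, and GINS3 rose by 0.61 at 2 µg (SE 0.14, adjusted p = 0.00488) under each of the 15 settings, while its log2 change of 0.31 at 4 µg was not called (adjusted p = 0.122). The other subunits tested, GINS2 and GINS4, had log2 changes of 0.13 and 0.08 at 2 µg and of -0.30 and -0.20 at 4 µg, none of them called. CDC45, which sits in the moving helicase with GINS, had changes of 0.00 and 0.03.

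Of the 6 genes of the MCM ring 2 rose at 2 µg, where 21.8% of all tested genes did. At 4 µg 0 were called, where 22.0% of all tested genes were. At an unadjusted p under 0.05, 0 were higher and 2 lower, against 19.8% and 16.8%. Set against 2 µg, 2 of the 6 were called lower at 4 µg, against 3.57% of all tested genes. The difference was negative for all 6 and for 4005 of the 8018 tested genes. MCM6 read 7.61 and 7.70 at 4 µg, 8.36 and 8.73 at 2 µg and 8.03 and 7.97 in the control. The groups were separate, with the control between the doses. MCM6 rose by 0.54 at 2 µg (SE 0.15, adjusted p = 0.014), had a log2 change of -0.35 at 4 µg (adjusted p = 0.114) and was lower at 4 µg than at 2 µg by -0.89 (SE 0.15, a 1.85-fold difference, adjusted p = 0.00817). The rise was lost without 2 µg replicate 2 or either control array (adjusted p up to 0.0885), and the difference between doses without 4 µg replicate 1 (adjusted p = 0.0628).

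MCM7, another ring subunit, read 13.66 and 13.57 at 4 µg, 14.06 and 13.81 at 2 µg and 13.29 and 13.37 in the control. Its 3 groups were separate in the order 2 µg, 4 µg, control, and it rose by 0.60 at 2 µg (SE 0.14, adjusted p = 0.00507) under each of the 15 settings. At 4 µg its log2 change was 0.28 (adjusted p = 0.159). MCM3 read 8.35 and 8.0 at 4 µg, 8.81 and 8.62 at 2 µg and 8.36 and 8.31 in the control. The 2 µg arrays were above all others, with a log2 change of 0.38 at 2 µg (adjusted p = 0.0622) and a called difference of -0.55 between 4 µg and 2 µg (adjusted p = 0.0477), lost when any 1 of the 6 arrays was left out (adjusted p up to 0.307) and with the authors' processed values, median scaling over all probes, no detection filter and only the groups compared fitted.

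MCM5 read 7.19 and 7.62 at 4 µg, 8.16 and 7.64 at 2 µg and 7.95 and 7.97 in the control. Both 4 µg arrays were below the control, by a log2 change of -0.56 that was not called (adjusted p = 0.0582). MCM2 read 9.34 and 9.42 at 4 µg, 9.60 and 9.25 at 2 µg and 9.40 and 9.52 in the control, and MCM4 read 10.87 and 10.59, 11.19 and 10.84, and 10.93 and 10.86 in the same order. For both genes the groups overlapped in each comparison, and their largest log2 change against the control was -0.17 (MCM4 at 4 µg, adjusted p = 0.465).

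Within the origin recognition complex, ORC1 and ORC5 rose at 2 µg. ORC1, the subunit whose level varies most over the cell cycle in human cells, read 8.76 and 8.56 at 4 µg, 9.40 and 9.22 at 2 µg and 8.60 and 8.69 in the control. The 2 µg arrays were above all others and the 4 µg arrays lay around the control. ORC1 rose by 0.66 at 2 µg (SE 0.13, adjusted p = 0.00297) under each of the 15 settings, changed by 0.01 at 4 µg (adjusted p = 0.947) and was lower at 4 µg than at 2 µg by -0.65 (adjusted p = 0.0187). That difference was lost without 2 µg replicate 1 or either 4 µg array (adjusted p up to 0.143) and with median scaling over all probes.

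ORC5 read 11.03 and 11.11 at 4 µg, 11.52 and 11.47 at 2 µg and 10.70 and 10.73 in the control, with no overlap between any groups. It rose by 0.78 at 2 µg (SE 0.12, 1.72-fold, adjusted p = 0.000677) under each of the 15 settings. Its second kept probe had 0.80 but was detected on 4 of 6 arrays. The control mean of that probe, 6.15, was below the lowest detected signal of either control array (6.46 and 6.43). At 4 µg the log2 change of ORC5 was 0.36 (adjusted p = 0.0578). ORC4 read 6.82 and 6.97 at 4 µg, 6.54 and 6.79 at 2 µg and 6.60 and 5.99 in the control, where it was detected on 1 of 2 arrays. The value of 5.99 was below the lowest detected signal of its array (6.43). ORC4 had a change of 0.37 at 2 µg (adjusted p = 0.146) and a difference of 0.23 between the doses (adjusted p = 0.467), neither called. It rose by 0.60 at 4 µg (SE 0.19, adjusted p = 0.0464), which was lost without either 4 µg array or control replicate 2 (adjusted p up to 0.287), with median scaling over the kept probes and with no detection filter. ORC2, ORC3 and ORC6 were not called, with changes of 0.13, -0.05 and 0.35 at 2 µg and 0.12, 0.07 and 0.27 at 4 µg.

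**Figure D4:**
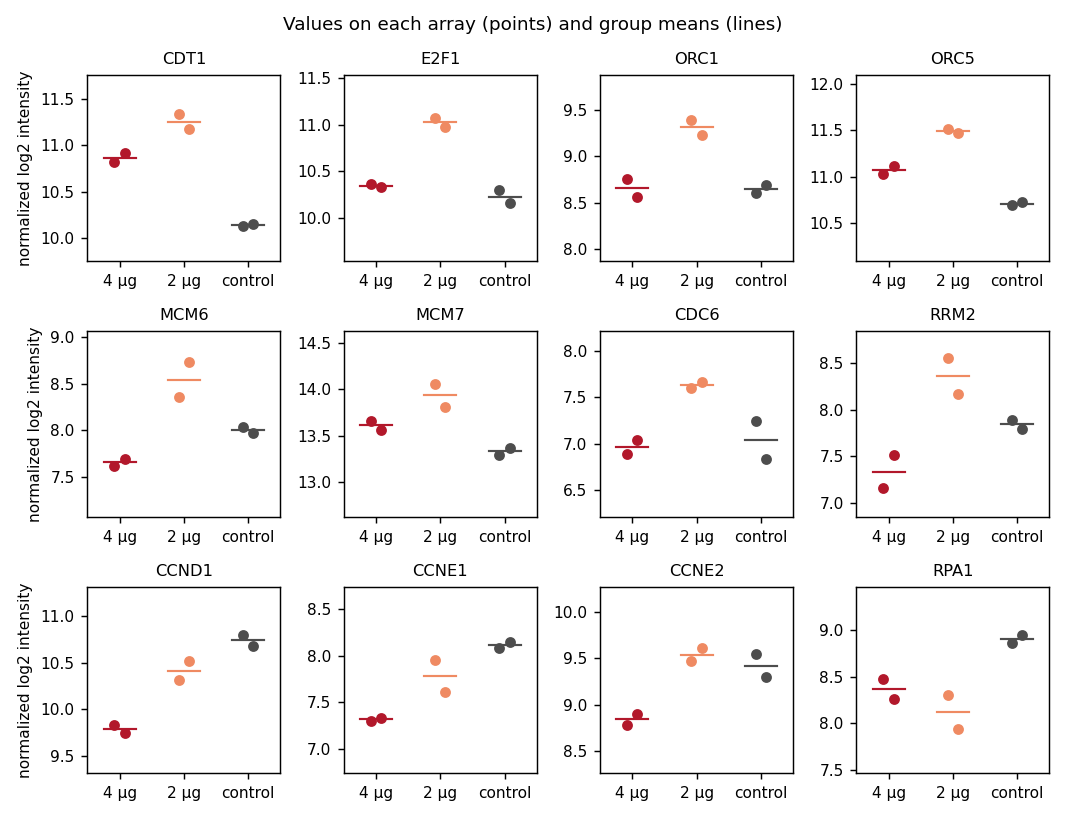
Normalized log2 intensity of 12 members on each array (points) with group means (lines), for the 4 µg, 2 µg and control arrays from left to right; each panel spans 2 log2 units. The 2 µg arrays are highest for CDT1, E2F1, ORC1, ORC5, MCM6, MCM7, CDC6 and RRM2, and the 4 µg arrays are lowest for CCND1, CCNE1 and CCNE2.

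E2F1, the transcription factor that switches on S phase genes, read 10.36 and 10.33 at 4 µg, 11.07 and 10.98 at 2 µg and 10.29 and 10.16 in the control. The 2 µg arrays stood well above the rest, and the 4 µg arrays were just above the control. E2F1 rose by 0.80 at 2 µg (SE 0.13, 1.74-fold, adjusted p = 0.000715) under each of the 15 settings, and its change at 4 µg was 0.12 (adjusted p = 0.534). Between 4 µg and 2 µg it differed by -0.68 (SE 0.13, adjusted p = 0.013), which was lost without 2 µg replicate 1 or either 4 µg array (adjusted p up to 0.0938).

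The 3 cyclins among the members fell at 4 µg. CCND1, cyclin D1, which carries growth signals to CDK4 and CDK6, read 9.83 and 9.75 at 4 µg, 10.31 and 10.52 at 2 µg and 10.80 and 10.69 in the control. All groups were separate, with the lowest level at 4 µg. CCND1 fell by 0.95 on the log2 scale at 4 µg (SE 0.13, a 1.94-fold fall, adjusted p = 0.00126) under each of the 15 settings, had a change of -0.33 at 2 µg (adjusted p = 0.0688) and was lower at 4 µg than at 2 µg by -0.62 (adjusted p = 0.0204). That difference was lost without 2 µg replicate 2 or either 4 µg array (adjusted p up to 0.136) and with median scaling over all probes.

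CCNE1, cyclin E1, a partner of CDK2 at the entry into S phase, read 7.30 and 7.33 at 4 µg, 7.96 and 7.62 at 2 µg and 8.09 and 8.15 in the control. Its groups were also separate, and it fell by 0.80 at 4 µg (SE 0.14, 1.74-fold, adjusted p = 0.00406) under each of the 15 settings, with a change of -0.33 at 2 µg (adjusted p = 0.0882). CCNE2, cyclin E2, read 8.78 and 8.91 at 4 µg, 9.47 and 9.61 at 2 µg and 9.54 and 9.30 in the control. Here only the 4 µg arrays stood apart, lower than all others. CCNE2 fell by 0.58 against the control (SE 0.14, adjusted p = 0.0148) and was lower at 4 µg than at 2 µg by -0.70 (SE 0.14, adjusted p = 0.0158). The fall was lost without either 4 µg array or control replicate 1 (adjusted p up to 0.111) and under median scaling over all probes and the authors' processed values, and the difference between doses without 2 µg replicate 2 or either 4 µg array (up to 0.121).

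RRM2, the small subunit of ribonucleotide reductase, which makes deoxynucleotides in S phase, had the largest difference between the doses among the 49 members. It read 7.15 and 7.52 at 4 µg, 8.55 and 8.17 at 2 µg and 7.89 and 7.79 in the control. The control lay between the doses with no overlap. RRM2 was lower at 4 µg than at 2 µg by -1.02 (SE 0.17, a 2.03-fold difference, adjusted p = 0.00785), which among the 15 settings was lost only without 4 µg replicate 1 (adjusted p = 0.0653). It rose by 0.52 at 2 µg (SE 0.17, adjusted p = 0.0304), lost without 2 µg replicate 1 or either control array (adjusted p up to 0.186) and with no detection filter, and its change of -0.51 at 4 µg was not called (adjusted p = 0.0545).

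The large subunit RRM1 had changes of 0.31 at 2 µg (adjusted p = 0.095) and 0.24 at 4 µg (adjusted p = 0.238). TYMS, thymidylate synthase, read 11.83 and 11.74 at 4 µg, 12.04 and 11.96 at 2 µg and 11.88 and 11.96 in the control, with changes of -0.13 at 4 µg (adjusted p = 0.473) and 0.08 at 2 µg (adjusted p = 0.641). Neither RRM1 nor TYMS was called in any comparison.

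Of the clamp loader, which opens the PCNA ring onto DNA, RFC1, RFC2 and RFC3 rose at 2 µg and RFC4 rose at 4 µg. RFC1 read 7.26 and 7.60 at 4 µg, 8.07 and 7.91 at 2 µg and 7.18 and 7.45 in the control, and rose by 0.68 at 2 µg (SE 0.16, adjusted p = 0.00648). RFC3 read 10.03 and 9.72 at 4 µg, 10.40 and 10.22 at 2 µg and 9.65 and 9.81 in the control, and rose by 0.58 at 2 µg (SE 0.15, adjusted p = 0.0107), with 0.44 for its second kept probe. In both genes the 2 µg arrays were above all others and the 4 µg arrays overlapped the control. RFC2 rose by 0.53 at 2 µg (adjusted p = 0.0198). The call of RFC1 was lost without control replicate 1 (adjusted p = 0.0599) and that of RFC3 without 2 µg replicate 1 or control replicate 1 (up to 0.0752). That of RFC2 was lost without 2 µg replicate 1 or either control array (up to 0.121) and with no detection filter.

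RFC4 read 11.38 and 11.30 at 4 µg, 11.26 and 11.19 at 2 µg and 10.78 and 11.06 in the control. Both 2 µg arrays were above the control, with a change of 0.31 that was not called (adjusted p = 0.1). The difference between the doses was 0.12 (adjusted p = 0.611). For RFC4 4 µg was highest, with a rise of 0.42 (SE 0.14, adjusted p = 0.0497). It was lost without either 4 µg array or control replicate 1 (adjusted p up to 0.25), with the replicate number as a block, with median scaling over the kept probes and with no detection filter. PCNA itself, the sliding clamp, read 12.20 and 12.28 at 4 µg, 12.27 and 11.89 at 2 µg and 12.38 and 12.44 in the control. All treated arrays were below both control arrays, but the changes of -0.17 at 4 µg (adjusted p = 0.428) and -0.33 at 2 µg (adjusted p = 0.0965) were not called. The second kept probe of PCNA had -0.14 at 4 µg and -0.02 at 2 µg. RFC5 had changes of 0.02 at 4 µg and 0.25 at 2 µg, neither called.

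PRIM1, the catalytic subunit of primase, which lays the RNA primers, read 10.62 and 10.75 at 4 µg, 10.63 and 10.57 at 2 µg and 10.03 and 10.33 in the control. The treated arrays were all above the control, with rises of 0.50 at 4 µg (SE 0.14, adjusted p = 0.0294) and 0.42 at 2 µg (SE 0.14, adjusted p = 0.0348). The rise at 4 µg was lost without either 4 µg array or control replicate 1 (adjusted p up to 0.179) and with no detection filter. That at 2 µg was lost when any array but control replicate 2 was left out (adjusted p up to 0.221) and with median scaling over all probes, no detection filter and only the groups compared fitted. Its partner PRIM2 had changes of 0.40 at 4 µg (adjusted p = 0.101) and 0.39 at 2 µg (adjusted p = 0.0746), and its second kept probe disagreed, with -0.22 and 0.06. POLA2, the accessory subunit of polymerase alpha, read 11.64 and 11.58 at 4 µg, 11.83 and 11.92 at 2 µg and 11.46 and 11.38 in the control, and rose by 0.45 at 2 µg (SE 0.12, adjusted p = 0.0137), lost without 2 µg replicate 2 or control replicate 2 (adjusted p up to 0.0699). The 3 groups did not overlap for POLA2, and for PRIM1 the doses overlapped, with a difference of 0.08 (SE 0.14).

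Of polymerase delta, the lagging strand polymerase, POLD3 rose at 2 µg and POLD1 fell at 4 µg, so the directions come from different comparisons. Neither was called at the other dose. The change of POLD3 at 4 µg was -0.15 (adjusted p = 0.491), and that of POLD1 at 2 µg was -0.38 (adjusted p = 0.0904). POLD3, an accessory subunit, read 7.85 and 7.88 at 4 µg, 8.61 and 8.39 at 2 µg and 7.87 and 8.16 in the control. It rose by 0.48 at 2 µg (SE 0.14, adjusted p = 0.0207) and was lower at 4 µg than at 2 µg by -0.63 (SE 0.14, adjusted p = 0.0261). The 2 µg arrays were above all others. The rise was lost without 2 µg replicate 1 or control replicate 1 (adjusted p up to 0.148), and the difference between doses without 2 µg replicate 1 or either 4 µg array (up to 0.148) and with the authors' processed values, median scaling over all probes and no detection filter. POLD1, the catalytic subunit, read 6.26 and 6.48 at 4 µg, 6.80 and 6.35 at 2 µg and 7.02 and 6.89 in the control. It was detected on 1 of 2 arrays at each dose and on 2 of 2 in the control. POLD1 thus entered the tests only through the group where it is highest. It fell by 0.58 at 4 µg (SE 0.16, adjusted p = 0.0304), lost without either 4 µg array or either control array (adjusted p up to 0.187), with the authors' processed values and with no detection filter. POLD2, POLE and POLE2 were not called, with changes of -0.31, -0.09 and 0.24 at 4 µg and of -0.09, 0.07 and 0.32 at 2 µg.

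RPA1 and LIG1 fell at each dose, in comparisons that share the control arrays. RPA1, the large subunit of the protein that coats single-stranded DNA, read 8.47 and 8.27 at 4 µg, 8.31 and 7.94 at 2 µg and 8.87 and 8.95 in the control. All treated arrays were below the control, with falls of 0.54 at 4 µg and 0.79 at 2 µg. LIG1, the ligase that seals Okazaki fragments, read 6.51 and 6.56 at 4 µg, 6.66 and 6.45 at 2 µg and 6.94 and 7.44 in the control, and was detected on 1 of 2 arrays at 2 µg. It fell by 0.66 at 4 µg (SE 0.17, adjusted p = 0.0206) and by 0.64 at 2 µg (SE 0.17, adjusted p = 0.0122). The fall at 4 µg was lost without either 4 µg array or control replicate 2 (adjusted p up to 0.133) and with no detection filter, and that at 2 µg without 2 µg replicate 2 or control replicate 2 (up to 0.102). The fall of RPA1 at 2 µg (SE 0.15, adjusted p = 0.00237) held under each of the 15 settings, and that at 4 µg (SE 0.15, adjusted p = 0.0302) was lost without either 4 µg array or either control array (adjusted p up to 0.195) and with the authors' processed values, median scaling over all probes and no detection filter.

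FEN1, the nuclease that trims Okazaki fragments, read 7.90 and 7.43 at 4 µg, 8.35 and 8.02 at 2 µg and 7.88 and 8.13 in the control. Both doses overlapped the control, and the changes of -0.34 at 4 µg (adjusted p = 0.201) and 0.18 at 2 µg (adjusted p = 0.459) were not called. The smaller subunits RPA2 and RPA3 had changes of -0.02 and -0.12 at 4 µg and of 0.22 and -0.45 at 2 µg. CHAF1A and CHAF1B, of the complex that places histones on new DNA, and UHRF1, which guides DNA methylation onto it, had changes between -0.19 and -0.02 at 4 µg and between 0.08 and 0.31 at 2 µg, with no call.

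The doses were compared directly to see whether the higher dose of plasmid went with a larger difference. Of 49 members, the 4 µg mean lay between the control and the 2 µg mean for 18, beyond the 2 µg mean for 13 and on the other side of the control for 18. Over all 8018 tested genes these shares were 56.5%, 24.2% and 19.3%, and they share the control arrays. The orders were counted under quantile normalization only, and the signs behind them depend on the scaling. Median scaling over all probes turned the 4 µg change of MCM3, MCM4, CDC6, MCM10, POLD3, RPA2, RPA3, CHAF1A and CHAF1B from negative to positive. Median scaling over the kept probes turned that of ORC1, RFC5 and RRM1 from positive to negative. The 10 members called lower at 4 µg than at 2 µg were MCM3, MCM6, ORC1, CDC6, MCM10, POLD3, RRM2, E2F1, CCNE2 and CCND1. The arrays of the doses did not overlap for 32 members, against 57.3% of all tested genes. Of these 29 were lower at 4 µg and 3 higher, against 27.9% and 29.4%. None of the 10 calls held when each array was left out in turn: the members called lower numbered 0 when 4 µg replicate 1 was left out, 2 when 4 µg replicate 2 was and 4 when 2 µg replicate 1 was. Of all tested genes 0.412%, 0.549% and 1.16% were lower in these fits, while the median difference from all tested genes stayed between -0.43 and -0.20.

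The count at 4 µg depends on how the arrays were scaled. Median scaling over all probes put the all-gene median log2 change at 4 µg at 0.18, against 0.03 with quantile normalization, and 7 members then rose and 4 fell, against 20.0% and 4.45% of all tested genes. With the authors' processed values 5 rose and 3 fell, against 15.2% and 6.68%, and with median scaling over the kept probes 2 rose and 9 fell, against 9.69% and 12.8%. Relative to the median of all tested genes, the members' median at 4 µg was -0.09, and between -0.12 and -0.07 under the 9 settings that kept all arrays. When 4 µg replicate 1 was left out 1 member rose and 2 fell, and when 4 µg replicate 2 was left out 1 rose and 3 fell. Without control replicate 1 the rises were 2 and the falls 3, and without control replicate 2 both were 3. With 1 of these 4 arrays left out, 4.24% to 6.40% of all tested genes rose and 4.27% to 5.31% fell. CDT1, CCND1 and CCNE1 were the members called at 4 µg under each of the 15 settings.

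Other genes of the pathway were taken from 5 lists with 120 genes, of which 117 were on the arrays. Of 18 tested replication fork and origin factors 8 rose and 2 fell at 2 µg, against 21.8% and 19.8% of all tested genes. At 4 µg 2 rose and 0 fell, against 11.8% and 10.2%. At an unadjusted p under 0.05, 5 were higher and 1 lower at 4 µg, against 19.8% and 16.8%. MCMBP, which binds the MCM proteins, rose by 1.53 at 2 µg (adjusted p = 5.38e-05) and by 0.96 at 4 µg (adjusted p = 0.00237). DTL, part of the ubiquitin ligase that destroys CDT1, rose by 0.84 at 2 µg (adjusted p = 0.000743). At 4 µg its change was 0.32 (adjusted p = 0.109). WDHD1, a factor that ties helicase to polymerase alpha, rose at each dose. Its change was 0.61 at 2 µg (adjusted p = 0.00308) and 0.40 at 4 µg (adjusted p = 0.0412).

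Of 29 tested genes of E2F, RB and G1/S control, 12 rose and 3 fell at 2 µg, against 21.8% and 19.8% of all tested genes. At 4 µg 5 rose and 4 fell, against 11.8% and 10.2%. E2F8, an E2F that represses S phase genes, rose by 1.53 at 2 µg (adjusted p = 1.82e-05). At 4 µg it rose by 0.66 (adjusted p = 0.0051). CDKN1C, a CDK inhibitor, was detected on 0 of 2 arrays at 2 µg and was at least 1.81-fold lower (adjusted p = 0.000115). At 4 µg CDKN1C was detected on 2 of 2 arrays and fell by 0.75 (adjusted p = 0.00844). At 4 µg CCND2, cyclin D2, had a log2 change of -1.17 (adjusted p = 0.00102) and CDKN1A, the CDK inhibitor p21, of -0.91 (adjusted p = 0.00117), against -1.08 and -0.85 at 2 µg. Between 4 µg and 2 µg 1 of the 29 was called higher and 4 were lower, against 5.23% and 3.57% of all tested genes.

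Of 15 other nucleotide supply genes 2 rose and 2 fell at 2 µg (13.3% each), against 21.8% and 19.8% of all tested genes. At 4 µg 1 rose and 1 fell (6.67% each), against 11.8% and 10.2%. ATIC, of purine synthesis, rose by 0.52 at 2 µg (adjusted p = 0.0115). At 4 µg its change was 0.38 (adjusted p = 0.0669). DTYMK, which phosphorylates dTMP, rose by 0.54 at 2 µg (adjusted p = 0.0135) and by 0.59 at 4 µg (adjusted p = 0.0178). IMPDH1, of guanine nucleotide synthesis, fell by 0.51 at 2 µg (adjusted p = 0.0144) and by 0.53 at 4 µg (adjusted p = 0.0232). Of 9 genes of chromatin assembly and the copying of DNA methylation 3 rose and 1 fell at 2 µg (33.3% and 11.1%). At 4 µg 1 rose and 1 fell (11.1% each), and the shares of all tested genes are those just given. ATAD2, a bromodomain ATPase, rose by 0.82 at 2 µg (adjusted p = 0.00054). At 4 µg its change was 0.31 (adjusted p = 0.0968). HELLS, a chromatin remodeller, rose by 0.46 at each dose (adjusted p = 0.0138 at 2 µg and 0.0261 at 4 µg). RBBP7, a histone chaperone, fell by 0.57 at 2 µg and 0.56 at 4 µg (adjusted p = 0.00505 and 0.0117).

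Of 28 tested G2/M and mitotic genes, 9 rose and 2 fell at 2 µg, against 21.8% and 19.8% of all tested genes. At 4 µg 5 rose and 0 fell, against 11.8% and 10.2%. At an unadjusted p under 0.05, 11 were higher and 0 lower at 4 µg, against 19.8% and 16.8%. The median log2 change of the mitotic genes was 0.27 at 2 µg and 0.29 at 4 µg, where the replication genes had 0.25 and -0.06. Between 4 µg and 2 µg the mitotic genes had a median of 0.00. Of them 2 were called higher and 0 lower, against 5.23% and 3.57% of all tested genes. At an unadjusted p under 0.05, 6 were higher and 1 lower, against 14.6% and 12.5%. The replication genes had a median of -0.29 between the doses, with 0 called higher and 10 lower. The difference between the lists was not tested. NDC80, of the kinetochore, rose by 0.99 at 2 µg (adjusted p = 0.0019) and by 1.00 at 4 µg (adjusted p = 0.00475). Its partner NUF2 rose by 0.77 at 2 µg (adjusted p = 0.0221) and by 1.30 at 4 µg (adjusted p = 0.00422). KIF20A, a mitotic kinesin, fell by 0.58 at 2 µg (adjusted p = 0.00552). At 4 µg its change was -0.25 (adjusted p = 0.192).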

How the data were processed

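Total RNA was amplified, labelled and hybridized to Illumina Human-6 arrays, per the labels' protocols, and BeadStudio is named in the submitters' processing notes without a version. The deposited scanner files give a mean intensity over the beads of each probe, before normalization, and a detection p-value, per the file headers. The authors' processed table holds intensity on the linear scale, related to the scanner intensity by 1 line per array, with a common mean of 238.3.

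In R 4.3.3 with limma 3.58.1, neqc corrected the intensities for a background inferred from the detection p-values. It then added an offset of 16, applied quantile normalization and took log2. The deposited annotation gave 1 symbol for 23687 probes, several for 35 and none for 24979. Each gene was represented by its brightest kept probe. All 3 groups were fitted together (3 residual and 7.42 prior degrees of freedom), two-sided. The number of arrays limits the precision. An "at least" fold sets the bright group against the lowest detected signal of each array of the other group.

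Alternatives were other scalings, offset, filters, probe averaging, groups fitted, the replicate number as a block, the authors' processed values, and each array left out, 15 settings in all (14 for a gene not detected on all 6 arrays). The fit was tested on simulated data. Values on every array are given for 18 central members, the 10 called members with the smallest p at each dose, the 4 between the doses and those that fell; of each other list, the 2 genes with the smallest p at each dose are named. Members and lists were chosen with earlier results of these data known.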

Additional observations from a re-analysis of the deposited data

How the results depend on the processing

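No called change of a member turned its direction under any of the 15 settings. At 2 µg the members that fell numbered 4 with an offset of 50 in the background step, where 20.8% of all tested genes fell. At 4 µg the members that rose numbered 7 with median scaling over all probes, against 20.0% of all genes in that fit. They numbered 2 with median scaling over the kept probes and 1 without a detection filter, against 9.69% and 3.61%. The members that fell at 4 µg numbered 3 with the authors' processed values and 3 without a detection filter, against 6.68% and 3.24%. Between 4 µg and 2 µg the members called lower numbered 4 with median scaling over all probes and 6 without a detection filter. Of all genes 1.27% and 0.543% were lower in these fits. Without the filter 273 of 18774 genes were called in all. Leaving out 1 array gave 10 to 15 rises and 1 to 5 falls at 2 µg, 1 to 4 rises and 2 to 8 falls at 4 µg, and 0 to 1 members higher and 0 to 8 lower between 4 µg and 2 µg. Over all tested genes it gave 2471 to 3093 calls at 2 µg, 696 to 2002 at 4 µg and 93 to 559 between the doses. Leaving 1 array in a group assumes that it varies like the other groups. The cause of these shifts was not tested. The members' median at 4 µg was 0.08 with median scaling over all probes, against -0.06.

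With the replicate number as a block, 17 members rose and 3 fell at 2 µg, against 21.6% and 19.9% of all tested genes. At 4 µg 3 rose and 6 fell, against 11.6% and 10.3%. Between the doses 0 were higher and 10 lower, against 5.29% and 3.55%. The labels give same-numbered arrays only a shared number. Over 8018 genes their deviations correlated at 0.11 between 4 µg and 2 µg, -0.09 between 4 µg and control and -0.04 between 2 µg and control. With 2 arrays per group, these values cannot tell whether same-numbered arrays shared anything more.

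The sign of 31 log2 changes against the control turned in 61 cases, and 0 of these were called with or without the alternative setting. With median scaling over all probes the sign turned at 4 µg for MCM2 (0.12), MCM3 (0.037), MCM4 (0.0096), CDC6 (0.058), GMNN (0.044), MCM10 (0.11), POLD3 (0.041), RPA2 (0.15), RPA3 (0.054), CHAF1A (0.14), CHAF1B (0.011) and UHRF1 (0.028), and at 2 µg for MCM2 (0.0076), GMNN (0.046), CDC45 (-0.012) and UHRF1 (-0.0062). With median scaling over the kept probes the sign turned at 4 µg for ORC1 (-0.00012), CDC45 (-0.0017), RFC5 (-0.13) and RRM1 (-0.018), and at 2 µg for GMNN (0.024), CDC45 (-0.034) and UHRF1 (-0.028). With the authors' processed values the sign turned at 4 µg for MCM2 (0.029), MCM10 (0.019), RFC5 (-0.012), RPA2 (0.055) and CHAF1A (0.052), and at 2 µg for MCM2 (0.055) and GMNN (0.092). Leaving out 1 array at a time, the log2 change at 4 µg ran between -0.34 and 0.010 for MCM3, between -0.082 and 0.11 for ORC1, between -0.083 and 0.22 for ORC3, between -0.29 and 0.13 for CDC6, between -0.18 and 0.056 for MCM10, between -0.16 and 0.21 for CDC45, between -0.053 and 0.29 for RFC1, between -0.016 and 0.30 for RFC3, between -0.090 and 0.049 for RPA2, between -0.17 and 0.063 for CHAF1A and between -0.053 and 0.010 for UHRF1. Leaving out 1 array at a time, the log2 change at 2 µg ran between -0.22 and 0.14 for MCM2, between -0.063 and 0.29 for MCM4, between -0.32 and 0.19 for MCM5, between -0.11 and 0.0057 for ORC3, between -0.14 and 0.12 for GMNN, between -0.18 and 0.19 for CDC45, between -0.031 and 0.30 for GINS2, between -0.075 and 0.24 for GINS4, between -0.026 and 0.46 for RPA2, between -0.0017 and 0.24 for CCNE2, between -0.030 and 0.42 for CHAF1B and between -0.0079 and 0.17 for UHRF1.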
